A study of Mus musculus with 9 samples.

Results

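Transforming growth factor beta (TGF-beta) signalling was described in mouse lung through 10 genes: the ligands Tgfb1, Tgfb2, Tgfb3, Inhba and Bmp4, the receptors Tgfbr1, Tgfbr2 and Bmpr2, the inhibitor Smad7 and the target gene Tgfbi. Every probe set whose single gene symbol in the array's annotation is 1 of these names was taken. All 10 genes were found, out of 8251 genes with a probe set of 1 symbol, and they had 13 probe sets. Tgfb3, Bmp4 and Tgfbi had 2 probe sets each.

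Lung RNA of C57BL6 mice was measured on 9 Affymetrix arrays of an asthma model induced with ovalbumin (OVA, an egg-white allergen). The groups, of 3 arrays each, are OVA challenge with an agonist of the prostaglandin E2 receptor EP3, OVA challenge alone, and saline challenge. Sample titles give 24 h for the first and second of these groups. The agonist's name, dose and timing, the sensitization, and the mice's age and sex were not found in the labels. Nothing states that the arrays of a group are different mice, so p-values measure only the spread between these samples, which may be technical. Markers of lung epithelium were detected: all 7 on the array passed the filter on dim probe sets. The brightest was Sftpc, a surfactant protein gene of alveolar type II cells.

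TGF-beta family ligands are secreted dimers. They bring type II and type I receptor kinases together, the type I kinase phosphorylates Smad proteins, and these enter the nucleus with Smad4 to switch target genes. TGF-betas and activins mainly use Smad2 and Smad3, and bone morphogenetic proteins (BMPs) mainly Smad1 and Smad5. In the lung the pathway is known for control of matrix production, smooth muscle, immune tolerance and vessel integrity, and for airway remodelling in asthma.

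Promoter sequence is shown for 5 of the 6 members whose OVA and saline arrays did not overlap, and Smad7, the other one, is only named. Such non-overlap was found for 37.6% of all 7920 probe sets tested, and of these members only Tgfbi passed the test described below. Each sequence is the 250 bases before the RefSeq gene start (build GRCm38.p6), 5′ to 3′ on the gene's own strand. Tgfbi's lies at chr13:56609336-56609585 (plus strand), Tgfb1's at chr7:25686752-25687001 (plus), Inhba's at chr13:16011601-16011850 (plus), Bmp4's at chr14:46390670-46390919 (minus) and Bmpr2's at chr1:59764029-59764278 (plus). Capitals mark GGCGCC, a GC-rich element that BMP Smads can bind.
Tgfbi: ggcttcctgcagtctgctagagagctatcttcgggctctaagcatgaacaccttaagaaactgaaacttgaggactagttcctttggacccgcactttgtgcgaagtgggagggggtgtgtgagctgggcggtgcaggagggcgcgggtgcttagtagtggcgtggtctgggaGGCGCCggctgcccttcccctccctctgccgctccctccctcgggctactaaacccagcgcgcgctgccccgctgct
Tgfb1: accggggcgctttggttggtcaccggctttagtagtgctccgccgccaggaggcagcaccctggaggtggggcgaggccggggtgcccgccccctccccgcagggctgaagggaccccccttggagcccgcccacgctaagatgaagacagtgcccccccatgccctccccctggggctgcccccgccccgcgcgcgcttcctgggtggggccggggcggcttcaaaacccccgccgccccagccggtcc
Inhba: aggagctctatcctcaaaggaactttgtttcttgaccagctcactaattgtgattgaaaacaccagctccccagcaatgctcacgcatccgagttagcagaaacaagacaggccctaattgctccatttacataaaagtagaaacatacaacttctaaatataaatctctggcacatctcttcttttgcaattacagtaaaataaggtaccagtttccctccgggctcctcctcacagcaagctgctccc
Bmp4: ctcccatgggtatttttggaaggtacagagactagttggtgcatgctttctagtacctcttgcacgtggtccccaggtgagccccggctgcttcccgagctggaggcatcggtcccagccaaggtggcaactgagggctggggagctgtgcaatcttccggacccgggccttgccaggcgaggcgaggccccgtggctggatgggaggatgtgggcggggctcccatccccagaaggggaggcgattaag
Bmpr2: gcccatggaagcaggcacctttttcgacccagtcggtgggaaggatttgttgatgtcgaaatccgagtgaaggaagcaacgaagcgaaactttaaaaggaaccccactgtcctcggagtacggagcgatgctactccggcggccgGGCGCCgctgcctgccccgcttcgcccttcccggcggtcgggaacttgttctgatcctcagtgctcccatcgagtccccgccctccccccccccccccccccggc
GGCGCC begins at -77 in Tgfbi and at -105 in Bmpr2, counted from the gene start, and is not in the other three windows. Both strands of the 8 members in the promoter table were searched for 3 motifs. None contains another, but the ends of GGCGCC and CAGACA can share a letter. GGCGCC was in 3 of the 8 (Tgfbi, Bmpr2 and Tgfbr1) and in 9.57% of the 27025 windows of that length. CAGACA, the core of the CAGA box that Smad3 and Smad4 can bind, was in 1 of the 8 (Tgfb2) and in 17.1% of all windows. GTCTAGAC, a palindrome that Smads can bind, was in 0 of the 8 and in 0.174% of all windows. A match describes letters and is no measured binding site.

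Deposited intensities were linear and reached below 0. The arrays were brought to an equal 2% trimmed mean, by factors of 0.741 to 1.29, and all values in the text are these scaled intensities, with means ± SD of 3 arrays. The detection limit was set at 44.7, the 40th percentile of all values, which between 59.6% and 60.6% of an array's probe sets exceeded. Testing required 3 arrays above it. Values under 3.10, the 20th percentile, were set to 3.10 before log2. Changes are log2 differences between groups with their standard error (SE), from limma over the 9 arrays. Its two-sided p-values were adjusted by Benjamini-Hochberg over 7920 probe sets, and a call is an adjusted p under 0.05. Of the 13 member probe sets 9 were tested, for 8 of the 10 members.

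Both receptors of TGF-beta itself were too dim to be tested. Tgfbr1, the type I receptor, read 40.9, 41.1 and 34.6 in OVA plus EP3 agonist lung, 36.7, 40.9 and 38.1 in OVA lung, and 39.6, 46.4 and 12.3 in saline lung, above the limit on 1 of 9 arrays. Tgfbr2, the type II receptor, lay between -11.3 and 5.70 on the 9 arrays. A dim probe set does not show that the transcript is missing, as genes with 2 probe sets make plain. The second probe set of Tgfb3 lay between -17.2 and 1.49, where the first read 236 to 303, and the second of Tgfbi lay between -24.3 and 16.2.

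The first comparison asks what allergen challenge altered. Tgfbi, an extracellular matrix protein induced by TGF-beta, was higher in OVA than in saline lung and was the 1 member called. In bulk lung, more cells of a type and more RNA per cell cannot be told apart. The other 7 tested members did not pass. Tgfb1 and Inhba had higher means in OVA lung, Bmp4, Bmpr2 and Smad7 had lower ones, and in each of these 5 the OVA and saline arrays did not overlap. Of the 9 tested probe sets, 1 was called higher and 0 lower, 1 in all. Of all 7920 probe sets 5.08% were called higher and 4.42% lower, 9.49% in all. An unadjusted limma p under 0.05 was found for 7 of the 9, with Bmp4 counted by both its probe sets, and for 29.1% of all. The members were chosen with earlier results of these data known, so these shares describe the list and do not test it. The median log2 change of the 9 was -0.24, against -0.08 for all probe sets tested. Non-overlap was common on these arrays: 3 member probe sets lay wholly higher and 4 wholly lower, as did 15.5% and 22.0% of all tested, 37.6% either way.

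**Figure D1:**
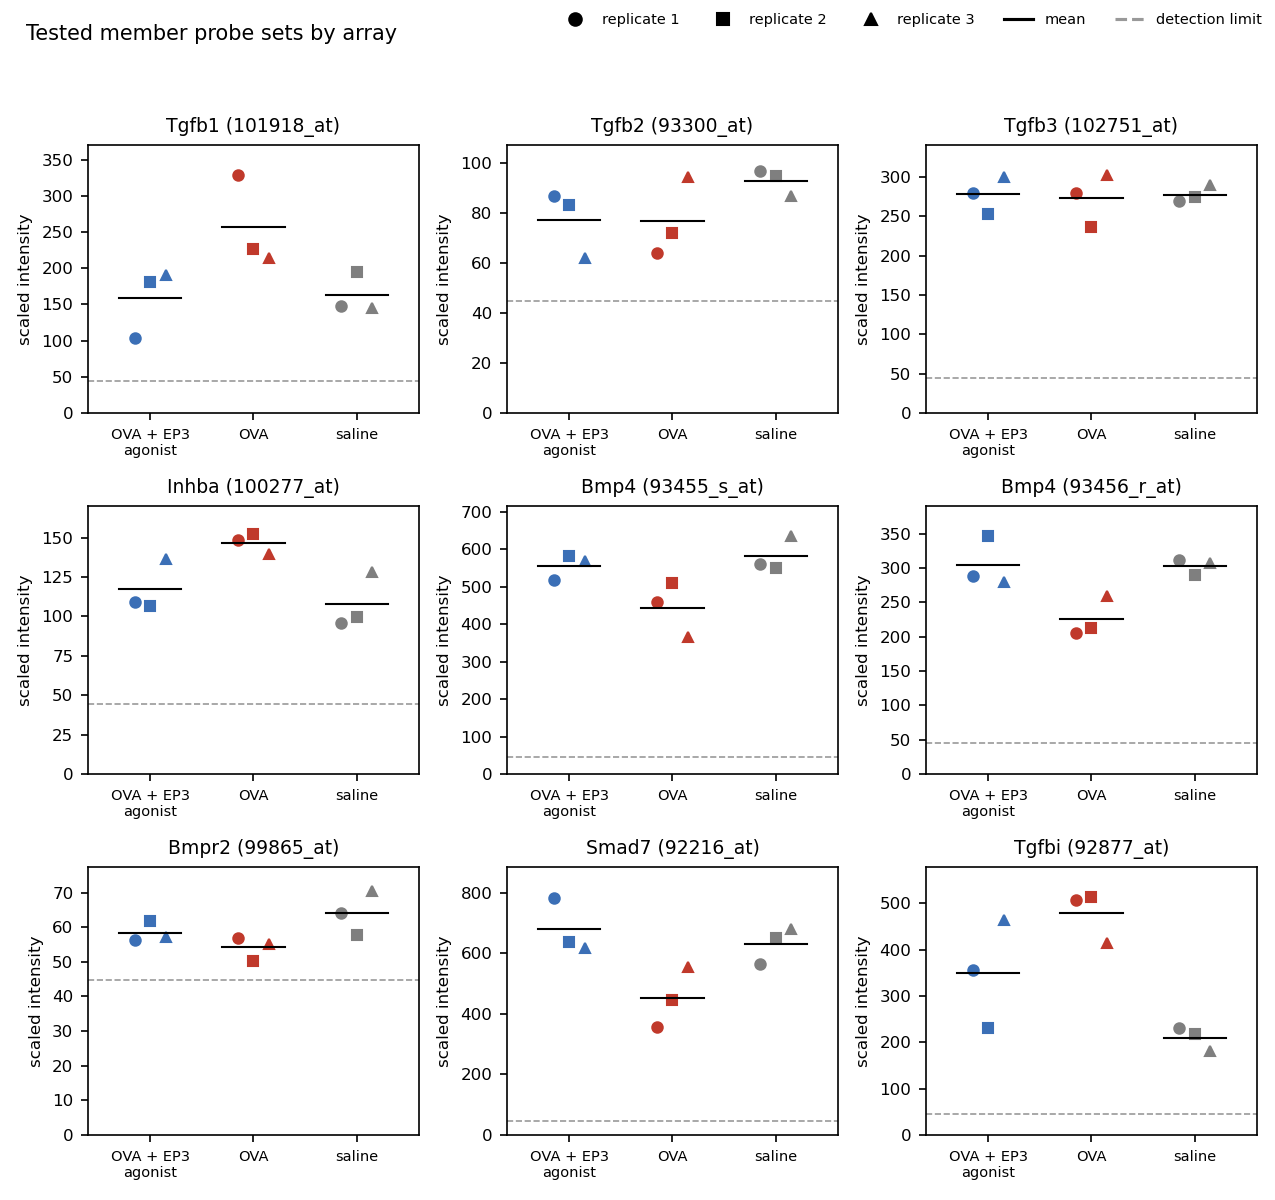
Scaled intensity of the 9 tested member probe sets on each array, for OVA plus EP3 agonist, OVA and saline lung. Points are arrays with a marker per replicate number, the line is the mean of 3, and the dashed line is the detection limit of 44.7. Tgfbi reads 415 to 513 on the OVA arrays and 181 to 232 on the saline arrays.

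Among the ligands, Tgfb1, the form that most immune cells make, read 329, 227 and 215 in OVA lung and 148, 195 and 145 in saline lung. The groups did not overlap, though OVA replicate 1 stood well above the other two. The log2 change was 0.64 ± 0.27 (SE), with a limma p of 0.0472 and an adjusted p of 0.165.

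Inhba encodes the subunit of activin A, a ligand that signals through the same Smads as TGF-beta. It read 149, 152 and 139 in OVA lung and 95.8, 99.5 and 128 in saline lung. All OVA arrays lay above all saline arrays, with saline replicate 3 the nearest to them. The log2 change was 0.46 ± 0.14 (SE; limma adjusted p = 0.0856).

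Bmp4, a BMP that patterns lung epithelium and vessels, was read by 2 probe sets. The brighter read 459, 509 and 365 in OVA lung and 561, 548 and 634 in saline lung, a log2 change of -0.40 ± 0.14 (SE; limma adjusted p = 0.103). The dimmer read 205, 212 and 259.5 in OVA lung and 311, 290.2 and 307 in saline lung, a change of -0.43 ± 0.13 (SE; limma adjusted p = 0.0696). Neither passed, and both put every OVA array below every saline array. They differed in which OVA array was lowest, replicate 3 on the brighter and replicate 1 on the dimmer.

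Tgfb2 and Tgfb3, isoforms best known from epithelium and mesenchyme, had overlapping groups. Tgfb2 averaged 76.7 ± 15.8 in OVA lung and 92.7 ± 5.28 in saline lung (SD, n = 3 each), with a 95% interval of the log2 change from -0.71 to 0.12 (limma adjusted p = 0.319). Tgfb3 averaged 273 ± 34.1 in OVA lung and 277 ± 10.5 in saline lung (SD, n = 3 each). Its interval ran from -0.30 to 0.24 (limma adjusted p = 0.884), the narrowest among the tested ligands of the 10 genes.

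Of the receptors, Bmpr2, the type II receptor for BMPs whose human mutations cause pulmonary arterial hypertension, was close to the detection limit. It read 56.9, 50.3 and 55.3 in OVA lung and 64.0, 57.8 and 70.5 in saline lung. The groups came within 1 unit of each other, at 56.9 on the highest OVA and 57.8 on the lowest saline array. Its log2 change was -0.24 ± 0.10 (SE; limma adjusted p = 0.163).

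Smad7 is the inhibitory Smad that TGF-beta induces and that blocks its type I receptor. It read 358, 446 and 556 in OVA lung and 564, 651 and 679.7 in saline lung. OVA replicate 3 nearly reached saline replicate 1, and OVA replicate 1 lay far below. The log2 change was -0.50 ± 0.18 (SE; limma adjusted p = 0.112).

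Tgfbi read 506, 513 and 415 in OVA lung and 232, 217 and 181 in saline lung. The lowest OVA array lay well above the highest saline array. It rose 2.28-fold (log2 change 1.19 ± 0.25 SE, limma adjusted p = 0.0296). The adjusted p was between 0.0677 and 0.10 without any 1 saline array or without OVA replicates 1 or 2, and at most 0.0447 without OVA replicate 3 or any 1 agonist array. With no filter on dim probe sets it was 0.0508.

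Macrophages are a known source of Tgfbi, and their markers moved in the same comparison. Of 7 tested macrophage markers, 6 rose and 1 fell in OVA lung, against 5.08% and 4.42% of all tested probe sets. The one that fell was Lyz2, the brightest of them. The summed intensity of the 9 on the array was 8122 to 8652 in OVA lung and 6531 to 7394 in saline lung. Marco lay below the detection limit on every array. The part of macrophages in the Tgfbi result was not tested.

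Pla2g7, Lilr4b and Csf2ra were the 3 genes whose log2 values over the 9 arrays were most like those of Tgfbi. Their Pearson r was 0.990, 0.988 and 0.973. Pla2g7 breaks down platelet-activating factor, Lilr4b is a receptor of myeloid cells, and Csf2ra is a chain of the GM-CSF receptor. The arrays share their group differences, so r is a description. Pla2g7 read 255, 299 and 179 in OVA lung and 74.1, 63.7 and 55.6 in saline lung. Lilr4b averaged 577 ± 61.4 in OVA lung and 210.0 ± 22.8 in saline lung (SD, n = 3 each). Csf2ra averaged 294 ± 43.8 in OVA lung and 121 ± 32.0 in saline lung (SD, n = 3 each). All 3 were called higher in OVA lung, and being chosen for likeness to Tgfbi they add no independent test.

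**Figure D2:**
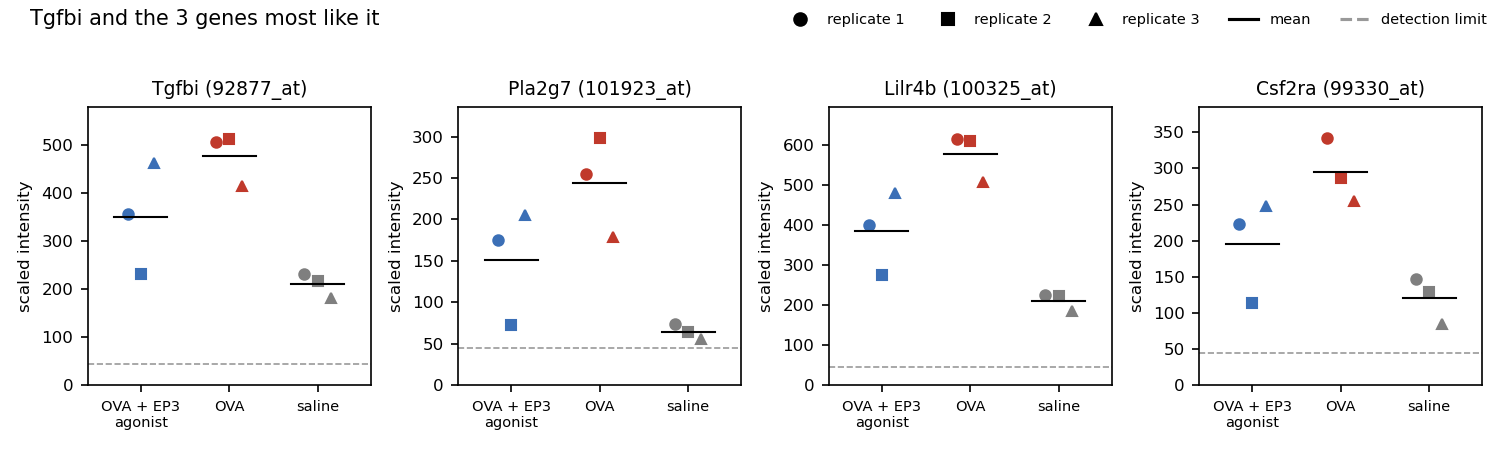
Scaled intensity of Tgfbi and of the 3 genes with the most similar pattern, by group and array. Points are arrays, the line is the mean of 3 and the dashed line is the detection limit. In all 4 genes replicate 2 is the lowest of the agonist arrays, at 231 for Tgfbi, where replicates 1 and 3 read 357 and 464.

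The second comparison asks what the EP3 agonist altered in challenged lung. No member passed: 0 of 9 probe sets were called by limma, against 2.75% of all tested, and 4 of the 9 had an unadjusted p under 0.05, against 24.2% of all. The members' median log2 change was 0.03 and that of all tested probe sets 0.06. The OVA arrays are shared with the first comparison, so the values of the 2 comparisons stand side by side and are not read together. In agonist-treated lung 3 probe sets lay wholly higher and 2 wholly lower, as did 17.8% and 12.0% of all tested, 29.9% either way.

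Smad7 read 784, 637 and 617 in OVA plus EP3 agonist lung and 358, 446 and 556 in OVA lung. Every agonist array lay above every OVA array, with agonist replicate 1 the highest. The log2 change was 0.60 ± 0.18 (SE; limma adjusted p = 0.0984).

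Bmp4 had higher values in agonist-treated lung on both probe sets, without overlap. The brighter read 517, 583 and 568 in OVA plus EP3 agonist lung, against 459, 509 and 365 in OVA lung (log2 change 0.34 ± 0.14 SE, limma adjusted p = 0.186). The dimmer read 288, 347 and 279 in agonist-treated lung, against 205, 212 and 259.5 in OVA lung (0.43 ± 0.13 SE, limma adjusted p = 0.0943). Neither change was called.

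Tgfb1 and Inhba had lower values in agonist-treated lung, without overlap and without a call. Tgfb1 read 104, 181 and 190.4 in OVA plus EP3 agonist lung and 329, 227 and 215 in OVA lung, a log2 change of -0.72 ± 0.27 (SE; limma adjusted p = 0.162). Agonist replicate 1 was the lowest and OVA replicate 1 the highest of these arrays. Inhba read 109, 107 and 136 in agonist-treated lung and 149, 152 and 139 in OVA lung (-0.33 ± 0.14 SE, limma adjusted p = 0.211). Agonist replicate 3 lay close to the OVA arrays.

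Tgfbi was scattered in agonist-treated lung, at 357, 231 and 464, against 506, 513 and 415 in OVA lung. Replicate 2 lay at the level of the highest saline array and replicate 3 among the OVA arrays, so the groups overlapped (-0.50 ± 0.25 SE, limma adjusted p = 0.261). Of 7 tested macrophage markers 1 rose and 2 fell in this comparison, against 1.25% and 1.50% of all tested probe sets. The one that rose was Lyz2, the brightest, averaging 6168 in agonist-treated and 4163 in OVA lung. All others tested had lower means in agonist-treated lung, and the median log2 change of the 7 was -0.73. Lyz2 was the largest part of the sum over the 9 on the array. That sum was 7809 to 8923 in agonist-treated lung and 8122 to 8652 in OVA lung. Tgfb2, Tgfb3 and Bmpr2 overlapped between the groups, with log2 changes of 0.01 ± 0.18, 0.03 ± 0.12 and 0.11 ± 0.10 (SE).

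The third comparison sets agonist-treated challenged lung against saline lung and shares its arrays with both others. Here 0 of 9 member probe sets were called by limma, against 0.0758% of all tested, and 1 of the 9 had an unadjusted p under 0.05, against 7.71% of all. All 9 had overlapping groups, where 13.7% of all tested did not overlap. Tgfbi had the largest change of the 9, at 350.3 ± 117 in OVA plus EP3 agonist lung and 210.0 ± 26.2 in saline lung (SD, n = 3 each; log2 change 0.69 ± 0.25 SE, limma adjusted p = 0.562). Smad7 averaged 679 ± 91.1 in agonist-treated lung and 632 ± 60.1 in saline lung (SD, n = 3 each), with a 95% interval of the log2 change from -0.31 to 0.51. The dimmer Bmp4 probe set averaged 305 ± 36.8 in agonist-treated lung and 303 ± 11.02 in saline lung (SD, n = 3 each), with an interval from -0.29 to 0.29.

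**Figure D3:**
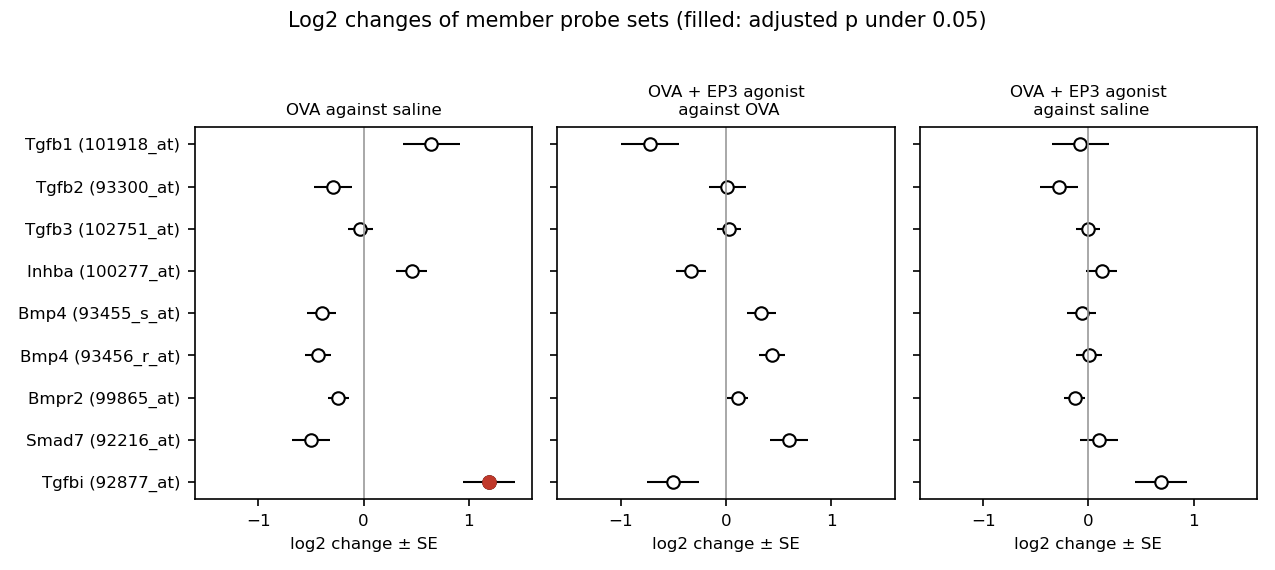
Log2 change of each tested member probe set in the 3 comparisons, with bars for the standard errors from limma and a filled point for an adjusted p under 0.05. Tgfbi in OVA against saline lung, at 1.19, is the only filled point.

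Around the members, 100 other genes of the pathway were listed by role. Of these 81 were on the array and 61 were tested, each by its brightest probe set. In OVA against saline lung 3 of the 61 rose and 8 fell, against 5.08% and 4.42% of all tested probe sets, with a median log2 change of -0.09, against -0.08 for all. In OVA plus EP3 agonist against OVA lung 3 rose and 1 fell, against 1.25% and 1.50% of all. In agonist-treated against saline lung 0 were called by limma. Without any 1 saline array, or without OVA replicates 1 or 2, at most 1 of the 61 was called in OVA against saline lung. In agonist-treated against OVA lung the count was 0 without any 1 saline array, OVA replicates 1 or 2, or agonist replicates 1 or 2, and 6 without agonist replicate 3.

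Among the receptors and co-receptors, 3 of 6 tested fell in OVA lung and 0 rose, against 4.42% and 5.08% of all tested probe sets. Eng, endoglin, the co-receptor of endothelial cells, read 2643, 2761 and 3085 in OVA lung and 3933, 4041 and 4427 in saline lung (log2 change -0.55 ± 0.09 SE, limma adjusted p = 0.020). Acvrl1 (ALK1), the endothelial type I receptor that works with endoglin, averaged 1082 ± 79.5 in OVA lung and 1457 ± 89.9 in saline lung (SD, n = 3 each; limma adjusted p = 0.0327). Its 2 dimmer probe sets fell as well, with log2 changes of -0.54 and -0.77. Tgfbr3, betaglycan, which presents TGF-beta2 to the signalling receptors, read 59.6, 59.97 and 63.7 in OVA lung and 195, 129 and 201 in saline lung, 2.81-fold lower (limma adjusted p = 0.0291).

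Smad6, the inhibitory Smad of the BMP branch, was the 1 of 9 tested Smads and nuclear partners called. It read 705, 767 and 963 in OVA lung and 1272, 1219 and 1251 in saline lung (log2 change -0.63 ± 0.14 SE, limma adjusted p = 0.0338). Of the 10 other ligands tested, Bmp5 fell, at 125, 125 and 140.2 in OVA lung and 188, 192 and 199 in saline lung (limma adjusted p = 0.0308). Counts of 1 in 9 and 1 in 10 lie near the 9.49% of all tested probe sets called in this comparison. Bmp6, chosen after its values were seen, fell on its dimmer probe set (-0.82 ± 0.16 SE, limma adjusted p = 0.0283) and did not pass on its brighter one (-0.99 ± 0.26 SE, limma adjusted p = 0.0541).

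Of 13 genes of latency, activation and extracellular inhibition, 3 fell and 0 rose, against 4.42% and 5.08% of all tested probe sets. Ltbp4, which binds latent TGF-beta1 and holds it in elastic fibres, read 1079, 1200.3 and 1497 in OVA lung and 2343, 2333 and 2278 in saline lung, 1.86-fold lower (limma adjusted p = 0.0127). With each of the 9 arrays left out in turn, its call was lost only without OVA replicate 2 (adjusted p = 0.0535). Dcn, decorin, a matrix proteoglycan that binds TGF-beta, averaged 1224 ± 26.2 in OVA lung and 1739 ± 106 in saline lung (SD, n = 3 each; limma adjusted p = 0.0239). Twsg1, a modulator of BMPs, averaged 421 ± 72.1 in OVA lung and 608 ± 30.7 in saline lung (SD, n = 3 each; limma adjusted p = 0.0475).

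Against 5.08% and 4.42% of all tested probe sets, 3 of 23 target genes rose in OVA lung and 0 fell. They were Acta2, smooth muscle actin (0.81 ± 0.13 SE, limma adjusted p = 0.0181), Tagln, transgelin of smooth muscle (0.58 ± 0.13 SE, limma adjusted p = 0.0323), and Id2, a transcriptional inhibitor best known as a BMP target (0.50 ± 0.12 SE, limma adjusted p = 0.0385). The relatives of Id2, chosen after their values were seen, did not pass. Id1 and Id3 had lower means in OVA lung (-0.27 ± 0.23 and -0.51 ± 0.14 SE, limma adjusted p = 0.477 and 0.0564). Id4 had a higher one (0.65 ± 0.26 SE, limma adjusted p = 0.142). Acta2 and Tagln also mark smooth muscle cells. Of 8 other fibroblast and smooth muscle markers, 2 rose and 1 fell, against 5.08% and 4.42% of all tested probe sets. The sum of the 8 was 5222 to 5617 in OVA lung and 4412 to 4730.4 in saline lung. Those that rose were the matrix genes Col6a1 and Col6a2 (collagen VI; 0.49 ± 0.08 and 1.36 ± 0.14 SE), and Pdgfra, a growth factor receptor of fibroblasts, fell (-0.64 ± 0.12 SE). The smooth muscle markers Cnn1, Des and Myh11 did not pass (0.13 ± 0.15, 0.02 ± 0.22 and 0.55 ± 0.15 SE, limma adjusted p = 0.603, 0.959 and 0.0567). In the sum of the 8, Col6a1 and Col6a2 averaged 1728 and 1171 in OVA lung and 1234 and 455 in saline lung. Pdgfra averaged 871 in OVA lung and 1354 in saline lung. The higher sum in OVA lung thus rests on the collagen VI genes. The part of fibroblasts and smooth muscle cells in the rises of Acta2 and Tagln was not tested. The collagen genes Col1a1 and Col3a1, chosen after their values were seen, did not pass on their brightest probe sets (0.67 ± 0.22 and 0.86 ± 0.30 SE, limma adjusted p = 0.0985 and 0.111). Each rose on a dimmer one (0.81 ± 0.19 and 1.61 ± 0.32 SE, limma adjusted p = 0.0410 and 0.0280), and the third of Col3a1 did not pass (1.04 ± 0.34 SE, limma adjusted p = 0.0943).

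**Figure D4:**
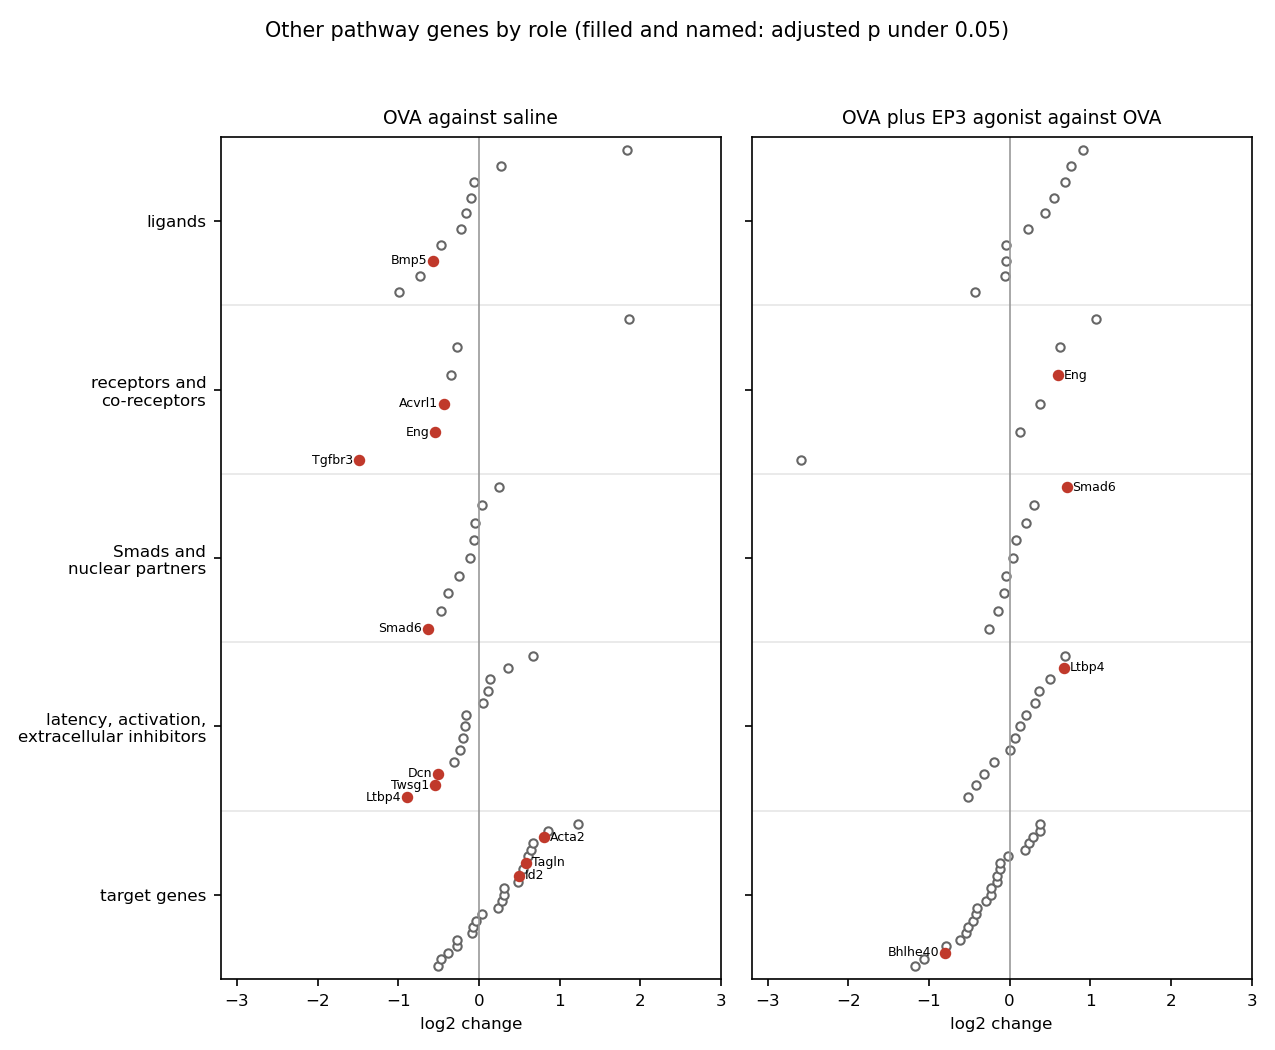
Log2 change of 61 other pathway genes by role, in OVA against saline lung and in OVA plus EP3 agonist against OVA lung. Each point is a gene's brightest probe set, and filled, named points have an adjusted p under 0.05: 3 higher and 8 lower in OVA against saline lung, 3 higher and 1 lower in agonist-treated against OVA lung.

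In agonist-treated against OVA lung, Eng, Smad6 and Ltbp4 rose. Eng read 4323, 4435 and 4044 in OVA plus EP3 agonist lung and 2643, 2761 and 3085 in OVA lung (log2 change 0.59 ± 0.09 SE, limma adjusted p = 0.0363). Smad6 read 1427, 1147 and 1384 in agonist-treated lung and 705, 767 and 963 in OVA lung (0.71 ± 0.14 SE, limma adjusted p = 0.0455). Ltbp4 read 2038, 2117 and 1839 in agonist-treated lung and 1079, 1200.3 and 1497 in OVA lung (0.68 ± 0.13 SE, limma adjusted p = 0.0444). In all 3 genes every agonist array lay above every OVA array, as in 17.8% of all tested probe sets. The genes were named for their calls on the same arrays, so this adds no separate support. Without any 1 saline array, OVA replicates 1 or 2, or agonist replicates 1 or 2, all 3 calls were lost, and that of Smad6 also without agonist replicate 3. Agonist-treated against saline lung gave changes of 0.05 ± 0.09, 0.08 ± 0.14 and -0.22 ± 0.13 (SE), with limma adjusted p of at least 0.734.

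Bhlhe40, a transcription factor that TGF-beta can induce and that also belongs to the circadian clock, fell in agonist-treated lung. It read 259, 398 and 371 in OVA plus EP3 agonist lung and 544, 649 and 582 in OVA lung (log2 change -0.81 ± 0.16 SE, limma adjusted p = 0.0491). That call was lost without any 1 array other than agonist replicate 3. Of the ligands 0 were called; the largest change was that of Inhbc, an activin subunit, at 185 ± 43.1 in agonist-treated and 98.2 ± 19.5 in OVA lung (SD, n = 3 each; limma adjusted p = 0.0690).

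Endothelial markers moved in both comparisons in which Eng, Smad6 and Ltbp4 were called. Both share the OVA arrays, so the comparisons are not read together. Acvrl1 was called in the first of these on all 3 probe sets, and in agonist-treated against OVA lung on 1 dimmer one (0.55 ± 0.10 SE, limma adjusted p = 0.0410) but not on the brightest (0.37 ± 0.09 SE, limma adjusted p = 0.0705) or the other dimmer one (0.27 ± 0.10 SE, limma adjusted p = 0.145). Of all tested probe sets 4.42% were called lower in OVA against saline lung and 1.25% higher in agonist-treated against OVA lung. Of 7 endothelial markers tested, 5 fell in OVA against saline lung and 2 rose in agonist-treated against OVA lung. Their summed intensity was 6129 to 6633 in OVA plus EP3 agonist lung, 4583 to 5082 in OVA lung and 6419 to 6824 in saline lung, and all 7 exceeded the detection limit on all 9 arrays. Their part in these results was not tested. Heart muscle markers, which lung tissue with its large veins can hold, fell in OVA lung in 5 of 7 cases. Their sum was 3796 to 4439.9 in agonist-treated lung, 2946 to 3647 in OVA lung and 3774 to 4638 in saline lung. Actc1, the largest part of that sum, did not pass in OVA against saline lung (0.07 ± 0.14 SE, limma adjusted p = 0.789). Epithelial markers summed to 34752 to 35286 in agonist-treated lung, 25619 to 32013 in OVA lung and 31362 to 37791 in saline lung, and 2 of 7 fell in OVA against saline lung. Of the 4 eosinophil markers on the array none was tested, and Prg2, Il5ra and Epx lay below the detection limit on every array.

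**Figure D5:**
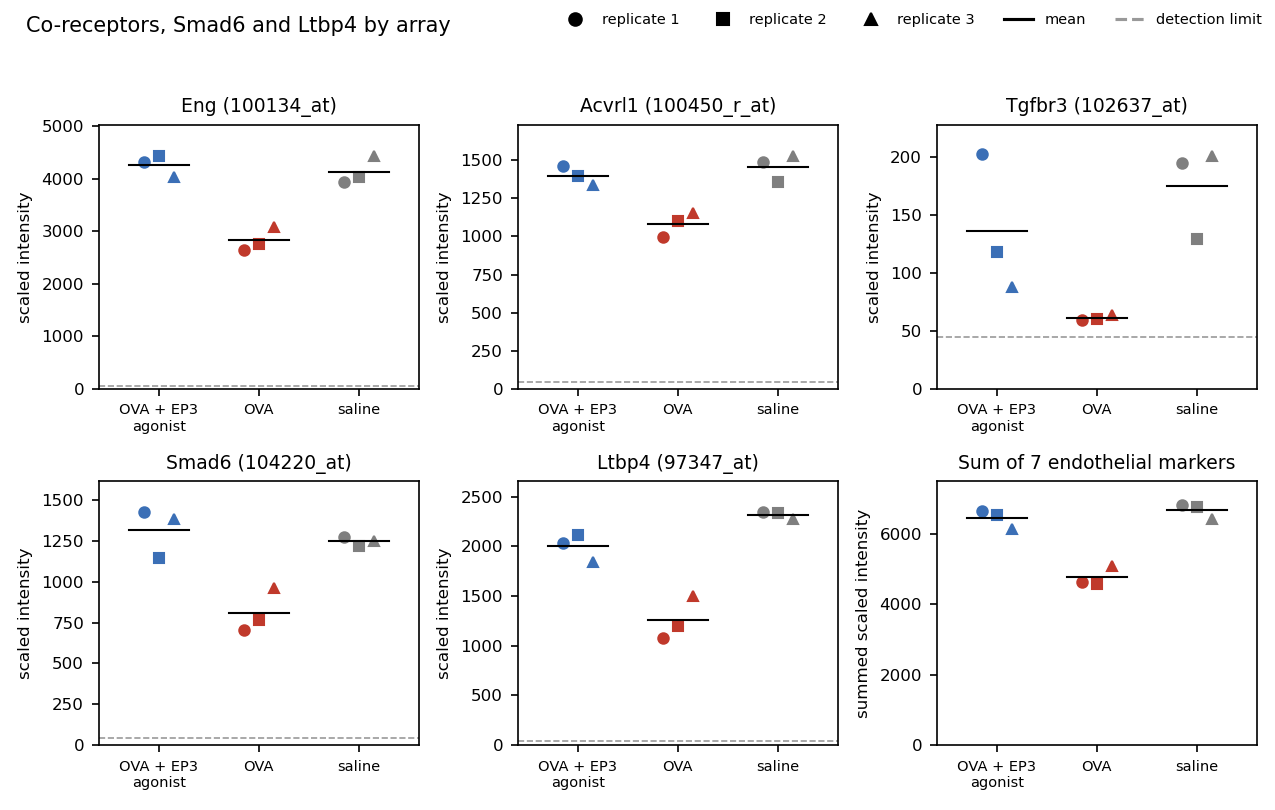
Scaled intensity of Eng, Acvrl1, Tgfbr3, Smad6 and Ltbp4 and the sum of 7 endothelial markers, by group and array. Points are arrays, the line is the mean of 3 and the dashed line is the detection limit. In all 6 panels the OVA arrays lie below the saline arrays, for Eng at 2643 to 3085 against 3933 to 4427. All single genes shown were called lower there, so for them this adds no separate support.

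In agonist-treated against saline lung no listed pathway gene passed. The largest ligand change was that of Gdf3, a ligand related to nodal, at 89.0, 82.0 and 67.4 in OVA plus EP3 agonist lung and 25.4, 15.5 and 6.43 in saline lung. All saline arrays lay below the detection limit, so the fold is at least 1.77 (limma adjusted p = 0.366). OVA lung was scattered, at 23.4, 82.8 and 60.4. In the other roles the largest changes were those of Acvr1b, an activin type I receptor (-0.72 ± 1.34 SE), Smad4, the partner of the signalling Smads (-0.27 ± 0.21 SE), Nog, the BMP antagonist noggin (0.74 ± 0.48 SE), and Id4, a relative of Id2 (0.53 ± 0.26 SE). Acvr1b lay below the detection limit on 2 of 3 agonist and 2 of 3 saline arrays, and Nog on 2 of 3 saline arrays, so the changes and ranks of both rest partly on background signal. The limma adjusted p of these 4 genes ran from 0.688 to 0.931.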

How the data were processed

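Intensities of 9 lung arrays were used as deposited, on a linear scale; what scanner software and summarization the authors used was not found in the labels. The number of arrays limits the precision. Of 12488 rows, 66 controls entered the scaling and were then dropped. Of the other 12422, 10833 carry 1 gene symbol, 396 several and 1193 none; gene IDs matched 10817 of the 10833 to RefSeq (GRCm38.p6), with 0 symbols changed.

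The groups, taken from the sample titles, were compared in a single limma model (version 3.58.1, R 4.3.3) without a replicate block, with 6 residual and 1.69 prior degrees of freedom. The code was tested on simulated data. Members, gene lists and tests were chosen with earlier results of these data known. The text names each pathway gene called and, for a role and comparison without a call, the gene of largest change; a gene is read by its brightest probe set. For a called member it names the 3 genes of highest Pearson r. A probe set whose group lies wholly below the detection limit gets a fold of "at least", the brighter group over that limit. Alternatives changed the scaling (quantiles, or equal medians), the floor (none, with 1 added to each value, or the 40th percentile), the filter (none, or the 60th percentile), the prior (trended and robust), the arrays in the fit (the 6 compared, or all but 1 in turn), the replicate block, and the probe set rule (mean per gene).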

Additional observations from a re-analysis of the deposited data

How the results depend on the processing

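Tgfbi kept its direction in OVA against saline lung in all 18 alternatives, with log2 changes from 1.09 to 1.29. The change stayed at 1.19 where only the filter, prior, replicate block, agonist arrays or floor percentile differed. These settings cannot move a difference of group means above the floor, so the direction there was fixed in advance. Besides the settings given with the Tgfbi values, its call in OVA against saline lung was lost with the replicate block (limma adjusted p = 0.0748). The number of member probe sets called there was 0 with no filter, 0 with the replicate block, 2 with a filter at the 60th percentile, where the dimmer Bmp4 probe set joined, and 0 to 2 with 1 array left out. In both other comparisons it was 0 in all alternatives.

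Of the 61 pathway genes, 11 were called in OVA against saline lung, 0 with the replicate block and 0 to 13 with 1 array left out. In agonist-treated against OVA lung 4 were called, 1 with no filter, 8 with a filter at the 60th percentile, 8 with an intensity trend, 0 with the 6 arrays alone, 0 with the replicate block and 0 to 6 with 1 array left out. Over all probe sets, 752 were called in OVA against saline lung, 50 with the replicate block and 80 to 857 with 1 array left out. In agonist-treated against OVA lung 218 were called, 361 with a floor at the 40th percentile, 445 with a filter at the 60th percentile, 453 with an intensity trend, 18 with the 6 arrays alone, 14 with the replicate block and 7 to 526 with 1 array left out. In agonist-treated against saline lung 6 were called, 3 with a filter at the 60th percentile, 2 with the replicate block and 5 to 16 with 1 array left out. The cause was not tested.

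Deviations from the group means correlated at -0.14 to 0.17 for 9 same-numbered pairs of arrays, 2 of them over 0.1. For 18 other pairs they correlated at -0.15 to 0.15, with 2 over 0.1. Correlations this weak cannot show whether arrays of the same replicate number belong together.

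Signs turned for 11 results, each called in no setting. Quantile scaling gave Tgfb3 0.0069 in OVA against saline, -0.0036 in agonist-treated against OVA and 0.0033 in agonist-treated against saline lung, and Eng -0.019 in the last. Equal medians gave Tgfb3 0.00023 in OVA against saline and 0.017 in agonist-treated against saline lung. With 1 array left out, log2 changes in agonist-treated against saline lung ran as follows: Tgfb1 -0.23 to 0.20, Bmp4 (dimmer) -0.094 to 0.063, Tgfb3 -0.059 to 0.064, Bmp4 (brighter) -0.10 to 0.0017, Smad7 -0.0074 to 0.16, Bmp5 -0.12 to 0.10, Twsg1 -0.10 to 0.032. With 1 array left out, log2 changes in agonist-treated against OVA lung ran as follows: Tgfb2 -0.11 to 0.17, Tgfb3 -0.072 to 0.11. With 1 array left out, log2 changes in OVA against saline lung ran as follows: Tgfb3 -0.11 to 0.071.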
